A study of Rattus norvegicus with 6 samples.

Results

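Retinoids, the derivatives of vitamin A, were followed through 9 named genes of rat nucleus pulposus cells: Stra6, Dhrs3, Aldh1a1, Aldh1a2, Crabp1, Crabp2, Rara, Rarb and Rarg. Members were taken by gene symbol from the 6 deposited expression tables, and 8 of the 9 had a row among the 17093 genes. For Aldh1a2 no row was matched by symbol or by rat gene ID, and it was not analysed here. The nucleus pulposus is the soft, hydrated centre of the intervertebral disc. All 6 samples were primary rat cells from male animals at passages 3 to 6, in DMEM-F12 medium with penicillin and streptomycin. In the serum-starved group (3 samples) fetal bovine serum was withheld, and the time label is 48 h. In the control group (3 samples) the medium held 10% serum, with the same time label. The labels name no strain, age or number of animals and do not say that the 3 samples of a group came from separate cultures, so a p-value here reflects the spread among these libraries alone, which may be technical.

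Retinol is oxidised to retinal by retinol dehydrogenases and reduced back by retinal reductases, and retinal is oxidised irreversibly to retinoic acid by the ALDH1A enzymes. Retinoic acid is carried in the cytosol by CRABP proteins and, in part, by FABP5, is broken down by CYP26 enzymes, and acts in the nucleus on RAR receptors paired with RXR at direct repeats called retinoic acid response elements. In the embryo this pathway patterns the axial skeleton, and in cartilage lineages retinoic acid holds back chondrocyte differentiation.

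Rarb is a classic direct target of retinoic acid, and the promoter windows of the members were searched for response elements. RefSeq windows on the GRCr8 build, 250 bases before to 50 after an annotated start, were matched for all 9 genes, with 2 windows for Rarg. A response element was taken as 2 copies, in the same direction on either strand, of a core hexamer. The hexamers were AGGTCA, its variant AGTTCA, the form GGGTCA and the form GGTTCA, any of them combined with 1, 2 or 5 bases between them. A repeat with 5 bases between the copies was found once, in the Rarb window, and such a repeat was present in 0.382% of 33469 windows. The first hexamer began at position 25, counted with the annotated start as 1. With its flanks it lies at chr15:11336410-11336438 on the plus strand, and the capitals mark the hexamers.
Rarb: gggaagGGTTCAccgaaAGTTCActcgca
No window of the other 8 members held any of the 3 repeats, and single hexamers, present in 44.4% of all windows, stood in the windows of Aldh1a1, Rara, Rarb, Stra6 and 1 of those of Rarg. A missing match says only that these letters were not in these windows.

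The 250 bases before the start are shown for the binding proteins Crabp1 and Crabp2, which fell most among the members, and for the reductase Dhrs3, the member that rose. Capitals mark the GC box GGGCGG on either strand, which is bound by Sp1-type factors, and the TATA box TATAAA on either strand. The windows lay at chr8:64047181-64047430, chr2:175714612-175714861 and chr5:162031603-162031852, all on the plus strand.
Crabp1: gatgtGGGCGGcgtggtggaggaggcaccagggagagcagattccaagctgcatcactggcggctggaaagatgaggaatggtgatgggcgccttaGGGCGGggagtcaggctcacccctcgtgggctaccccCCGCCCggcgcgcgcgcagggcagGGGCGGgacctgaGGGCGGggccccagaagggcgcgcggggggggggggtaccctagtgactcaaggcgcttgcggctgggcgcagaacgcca
Crabp2: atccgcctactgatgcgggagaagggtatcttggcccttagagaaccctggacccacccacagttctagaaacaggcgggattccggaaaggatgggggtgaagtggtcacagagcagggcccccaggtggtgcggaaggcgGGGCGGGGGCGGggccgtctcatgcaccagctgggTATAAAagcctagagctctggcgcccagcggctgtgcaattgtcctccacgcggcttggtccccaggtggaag
Dhrs3: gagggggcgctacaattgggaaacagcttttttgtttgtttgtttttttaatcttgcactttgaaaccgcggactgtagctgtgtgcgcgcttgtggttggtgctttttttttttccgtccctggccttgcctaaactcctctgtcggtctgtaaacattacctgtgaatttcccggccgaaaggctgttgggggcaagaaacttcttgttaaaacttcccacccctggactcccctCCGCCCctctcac
Crabp1 held 5 GC boxes and no TATA box, with 71.6% G and C. Crabp2 held 2 GC boxes side by side and 1 TATA box, with 63.2% G and C. That TATA match began at base -73 relative to the annotated start, and whether it is used was not tested. Dhrs3 held 1 GC box and no TATA box, with 49.6% G and C. A GC box was present in 30.5% and a TATA box in 12.9% of all windows over the same 250 bases, and no GC box overlapped another or the TATA box.

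Values are the deposited ones, treated as FPKM, a level scaled by transcript length and sequencing depth, and groups are given as mean ± SD with n = 3 each. The depth in reads is unknown. Library sums were 447788 to 473452 in the serum-starved group and 522165 to 530095 in the control group. A difference is the serum-starved minus the control mean of log2(value + 1), given with its standard error (SE), and this scale understates changes of low genes. A gene was tested where at least 3 libraries held a value of at least 1, and it was said to rise or fall where limma, a linear model across genes, gave a p no higher than 0.05 after Benjamini-Hochberg adjustment over all 11493 tested genes. On this rule 61.1% of tested genes changed, 31.7% rising and 29.4% falling. With every library scaled to the same sum, 5579 genes rose and 2410 fell, against 3640 and 3384 on the deposited scale. That scaling also moved the median of all genes by 0.19 on the log2 scale and let 12205 genes reach the filter.

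Of the 6 retinoid members that reached the filter, Crabp1, Crabp2, Aldh1a1, Rara and Rarg fell in serum-starved cells and Dhrs3 rose, where 61.1% of all tested genes changed. All 6 had groups that did not overlap, as did 68.2% of tested genes. A change of at least 2-fold was reached by Crabp1 and Crabp2 among the genes that fell, against 7.18% of tested genes, and by Dhrs3 among those that rose, against 4.17% of tested genes. Crabp1 reached the filter only through the control libraries, so its place in these counts rests on the group where it is high. Without control replicate 2 or 3, 3 members fell, since Rarg missed the threshold and Crabp1 no longer reached the filter, and 3 fell with equal library sums. Stra6 and Rarb stayed below the filter and were not tested. In these bulk samples, less RNA per cell and fewer cells of a kind cannot be told apart.

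**Figure D1:**
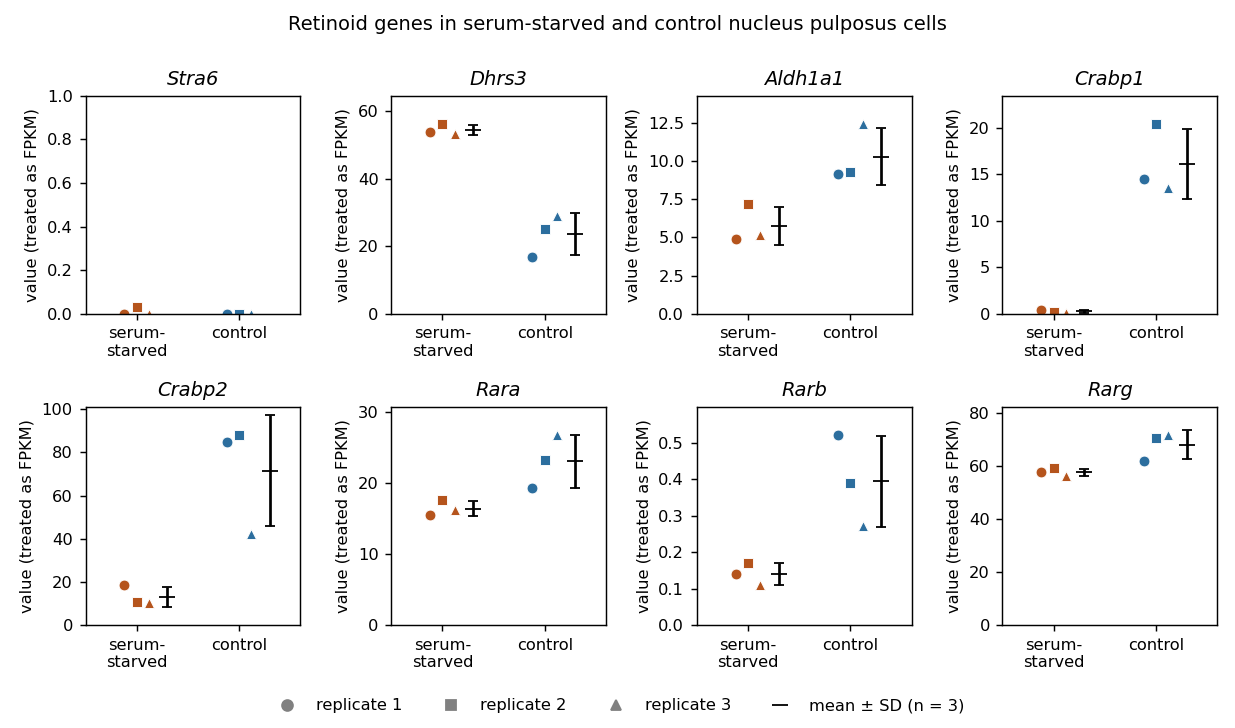
Deposited values (treated as FPKM, linear axis from 0, own range per panel) of the 8 retinoid members with a row, in 3 serum-starved libraries (left, brown) and 3 control libraries (right, blue), with mean ± SD beside them except for Stra6. Crabp1 sits between 0.10 and 0.44 in serum-starved libraries, below every control library, Dhrs3 is higher in all serum-starved libraries, and the Stra6 panel stays near 0.

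The retinol receptor and the storage enzyme were near 0, while lipoprotein receptors of the uptake and storage list were well measured. Stra6, the membrane receptor that takes up retinol from its plasma binding protein, was listed at 0, 0.03 and 0 in serum-starved replicates 1, 2 and 3 and at 0 in all 3 control libraries. Lrat, which esterifies retinol for storage, was listed at 0, 0.02 and 0 in serum-starved cells and at 0 in every control. Both genes therefore lay under the filter in both groups, and no fold is given for them. Of the 16 symbols on the uptake and storage list 14 had a row and 4 were tested, of which 1 rose, 1 fell and 2 did not pass. Among all tested genes 31.7% rose and 29.4% fell. Scarb1, a lipoprotein receptor that also takes up carotenoids, fell 2.43-fold to 10.4 ± 0.895, against 25.3 ± 0.829 in controls. Lrp1, an endocytic receptor for lipoprotein remnants, rose 1.53-fold to 230.3 ± 28.8, against 150.6 ± 22.5 in controls.

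Enzymes that interconvert retinol and retinal were mostly higher in serum-starved cells. Dhrs3 (gene ID 313689), which reduces retinal to retinol and so limits the supply for retinoic acid synthesis, had values of 53.9, 56.3 and 53.3 in serum-starved replicates 1, 2 and 3, against 16.7, 25.0 and 28.9 in control replicates 1, 2 and 3. The serum-starved libraries lay within 3 units of each other and all above the highest control, while the controls were spread more widely, with replicate 1 lowest. Dhrs3 rose 2.31-fold, to 54.5 ± 1.55 against 23.6 ± 6.23 in controls, with a difference of 1.21 ± 0.167 (SE) and a limma adjusted p of 0.000377. The RefSeq window printed above for Dhrs3 held no hexamer.

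Of the 20 symbols on the list of retinol and retinal enzymes 18 had a row and 12 were tested, of which 9 rose (Dhrs3 among them), 1 fell and 2 did not pass. The median difference over these 12 genes was 0.62, against 0.03 over all tested genes, of which 31.7% rose and 29.4% fell. Rdh16, counted among the genes that rose, was below 1 in every control and reached the filter only through the serum-starved libraries. Retsat, which saturates a double bond of retinol, rose 2.25-fold to 83.1 ± 1.45, against 37.0 ± 2.67 in controls. Rdh14, a retinol dehydrogenase, rose 2.17-fold to 8.21 ± 1.04, against 3.78 ± 0.593 in controls. Dhrs4, a carbonyl reductase that can act on retinal, rose 1.89-fold to 16.8 ± 1.59, against 8.90 ± 0.520 in controls. The exception was Dhrs9, a dehydrogenase described for retinol and hydroxysteroids, which fell 3.73-fold to 14.0 ± 3.89, against 52.4 ± 9.90 in controls.

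Rdh10, the main retinol dehydrogenase of the embryo and the enzyme that works against Dhrs3, had values of 6.64, 9.15 and 7.70 in serum-starved cells, against 5.73, 5.67 and 6.06 in controls. Its rise was small, with a difference of 0.36 ± 0.109 (SE) and a limma adjusted p of 0.0187. The ratio of Dhrs3 to Rdh10 within a library, to which a scaling factor of the library does not matter, was 8.12, 6.15 and 6.92 in serum-starved cells, against 2.92, 4.42 and 4.77 in controls. On the log2 scale, with 0.01 added to both values, the ratio was higher by 0.83 in serum-starved cells, with no overlap between the groups. An exact two-sided permutation test gave p = 0.1, the smallest p that 3 against 3 samples allow, also after Benjamini-Hochberg adjustment over the 2 ratios tested.

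Retinoic acid synthesis was represented by Aldh1a1 (gene ID 24188), a cytosolic retinaldehyde dehydrogenase. Its values were 4.90, 7.19 and 5.13 in serum-starved replicates 1, 2 and 3, against 9.18, 9.28 and 12.42 in control replicates 1, 2 and 3. All serum-starved libraries were below all controls, with the highest value in control replicate 3. Aldh1a1 fell 1.79-fold, with a difference of -0.75 ± 0.154 (SE) and a limma adjusted p of 0.00311. This value is uncertain, because the rodent paralog Aldh1a7 is close in sequence and the handling of reads that match both is not known. Aldh1a7 had 13.5 ± 2.34 in serum-starved cells and 22.9 ± 4.29 in controls, and the sum of both genes was 19.3 ± 3.50 in serum-starved cells and 33.2 ± 6.13 in controls, 1.72-fold lower. Aldh1a3, another retinaldehyde dehydrogenase, did not pass the test, with 2.59 ± 1.02 in serum-starved cells, 3.01 ± 0.608 in controls and a limma adjusted p of 0.429.

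The cytosolic carriers showed the largest differences of the pathway. Crabp1 (gene ID 25061), which binds retinoic acid and is linked to its breakdown, had values of 0.44, 0.21 and 0.10 in serum-starved replicates 1, 2 and 3, against 14.45, 20.39 and 13.50 in control replicates 1, 2 and 3. Each serum-starved library held a value below 1, while every control was above 13. The ratio of means was 64.5-fold lower, imprecise because the serum-starved values are near the floor of the deposited decimals, and the difference was -3.76 ± 0.164 (SE) with a limma adjusted p of 6.35e-07. Crabp1 reached the filter only through the 3 controls, and with no filter the difference was the same and the limma adjusted p was 2.24e-05. The size depends on the pseudocount and the scale, at -5.63 with a pseudocount of 0.1, -4.47 with 0.5 and -4.37 with equal library sums. By level in controls it ranked at 4644 of 17093 genes, so it was well detected there.

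Crabp2 (gene ID 29563), which delivers retinoic acid to the receptors in the nucleus, had values of 18.55, 10.48 and 10.35 in serum-starved replicates 1, 2 and 3, against 84.65, 87.93 and 41.97 in control replicates 1, 2 and 3. The groups did not overlap, and control replicate 3 was far below the other controls. Crabp2 fell 5.45-fold, to 13.1 ± 4.70 against 71.5 ± 25.6 in controls, with a difference of -2.34 ± 0.303 (SE) and a limma adjusted p of 0.000263. Without control replicate 3 the difference was -2.68.

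Crabp1 fell by a larger factor than Crabp2 in these libraries. The ratio of Crabp2 to Crabp1 within a library was 42.2, 49.9 and 103.5 in serum-starved cells, against 5.86, 4.31 and 3.11 in controls. The serum-starved ratios are imprecise, since they divide by Crabp1 values of 0.44, 0.21 and 0.10, near the floor of the deposited decimals. With a pseudocount of 0.1 the log2 difference of this ratio was 3.21. On the log2 scale, with 0.01 added to both values, the ratio was 5.83 ± 0.636 in serum-starved cells and 2.10 ± 0.457 in controls, a difference of 3.74 without overlap (exact two-sided permutation test, p = 0.1, the smallest possible, and 0.1 after adjustment over 2 ratios). Crabp1 accordingly held 1.75% ± 0.706 of the summed CRABP level in serum-starved cells, against 19.2% ± 4.89 in controls.

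Fabp5, a fatty acid binding protein that also binds retinoic acid, fell 7.85-fold to 61.7 ± 14.2, against 484.1 ± 95.9 in controls, with a difference of -2.96 ± 0.181 (SE) and a limma adjusted p of 4.00e-06. Its value is uncertain as well, since the reference table names 2 pseudogenes of Fabp5 whose reads could be shared with it. The 3 carriers Crabp1, Crabp2 and Fabp5 summed to 96.3, 68.8 and 59.9 in serum-starved cells, against 680.3, 590.0 and 445.0 in controls. Fabp5 held 82.4% ± 2.10 of that sum in serum-starved cells and 84.9% ± 2.99 in controls, and it was the most abundant carrier in every library on this per-length scale.

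On the breakdown side, Cyp26b1, which oxidises retinoic acid, had values of 0.65, 1.71 and 0.82 in serum-starved cells and 1.48, 1.51 and 1.10 in controls. The groups overlapped, and the limma adjusted p was 0.314. Cyp26a1, the most retinoic acid inducible enzyme of that family, was listed at 0 in all 3 serum-starved libraries and at 0, 0.04 and 0 in controls. Over the list for retinoic acid synthesis, binding and breakdown, 10 of 11 symbols had a row and 6 were tested, of which 4 fell (Crabp1, Crabp2, Fabp5 and Aldh1a1) and 2 did not pass. The share of all tested genes that fell was 29.4%.

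**Figure D2:**
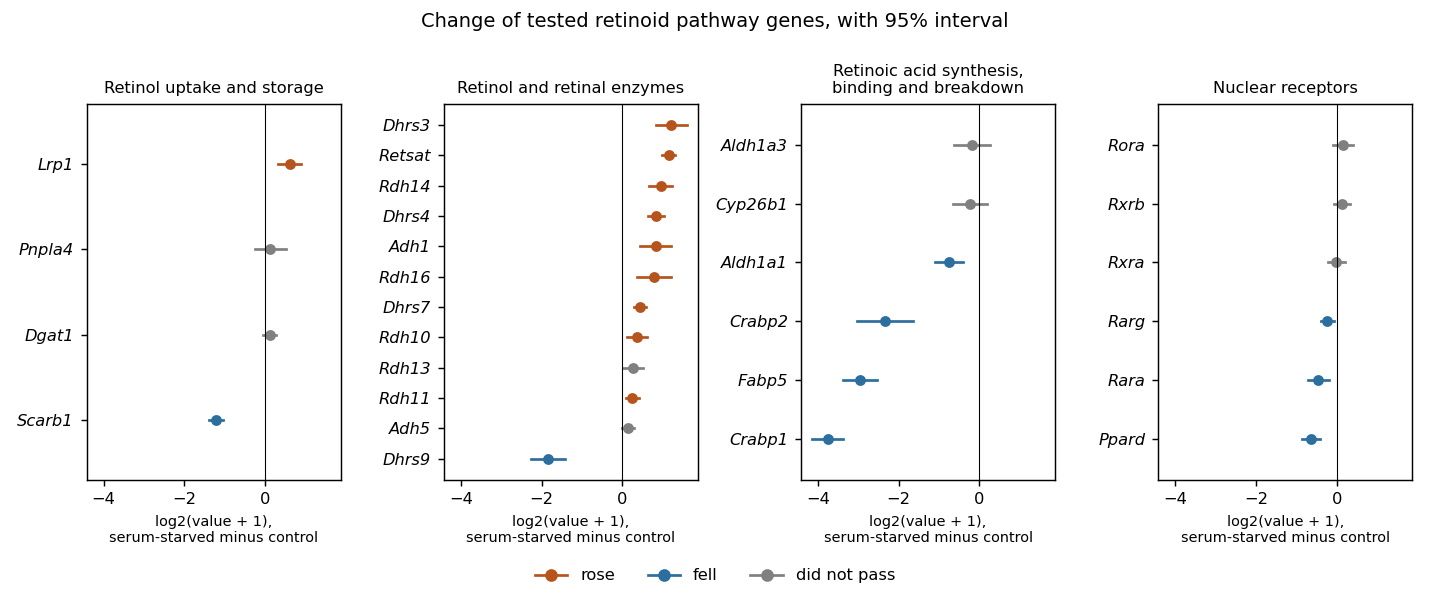
Difference of each tested retinoid pathway gene on the log2(value + 1) scale, serum-starved minus control, with its 95% interval from limma, in 4 lists; brown genes rose, blue genes fell and grey genes did not pass the test. Retinol and retinal enzymes lie mostly to the right of 0 with Dhrs9 at -1.84, while the carriers Crabp1, Fabp5 and Crabp2 lie at -3.76, -2.96 and -2.34.

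Retinoic acid receptors differed little in comparison. Rarg (gene ID 685072), the receptor of cartilage and skin, had the highest level of the 3, at 57.7, 59.1 and 56.5 in serum-starved replicates 1, 2 and 3, against 61.8, 70.8 and 71.7 in control replicates 1, 2 and 3. Rara (gene ID 24705), the most widely expressed receptor, had 15.4, 17.5 and 16.1 in serum-starved cells, against 19.2, 23.1 and 26.7 in controls. For both genes every serum-starved library was below every control, with control replicate 1 nearest to the serum-starved values. Rara fell 1.41-fold, with a difference of -0.46 ± 0.114 (SE) and a limma adjusted p of 0.00803. Rarg fell 1.18-fold, with a difference of -0.23 ± 0.0724 (SE) and a limma adjusted p of 0.0227.

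The calls of both receptors rest on the scale. With every library scaled to the same sum, the difference of Rara was -0.28 (limma adjusted p = 0.0724) and that of Rarg was -0.041 (limma adjusted p = 0.638), and after quantile normalization that of Rarg was -0.057 (limma adjusted p = 0.532). Rarg also missed the threshold when replicate 1 or 3 of the serum-starved group, or replicate 2 or 3 of the control group, was left out, with limma adjusted p between 0.0534 and 0.0857. Relative to the median of all genes, the difference of Rara was -0.49 and that of Rarg -0.26 on the deposited scale, and -0.50 and -0.26 with equal sums. After quantile normalization that of Rarg was -0.12.

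Rarb (gene ID 24706), whose window holds the response element printed above, had values of 0.14, 0.17 and 0.11 in serum-starved replicates 1, 2 and 3, against 0.52, 0.39 and 0.27 in control replicates 1, 2 and 3. No library reached 1, so Rarb was not tested. All its serum-starved values were below all control values, and groups did not overlap in 68.2% of tested genes. Its difference was -0.29 on the log2(value + 1) scale, and with no filter on low values limma gave an adjusted p of 0.0128. That setting called 7581 of 16684 genes, and values this near the floor leave the change of Rarb uncertain. The 3 receptors summed to 73.2, 76.8 and 72.7 in serum-starved cells, against 81.6, 94.3 and 98.6 in controls. Rarg held 77.8% ± 0.906 of that sum in serum-starved cells and 74.5% ± 1.63 in controls, and Rarb held 0.188% ± 0.0351 in serum-starved cells and 0.442% ± 0.184 in controls.

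**Figure D3:**
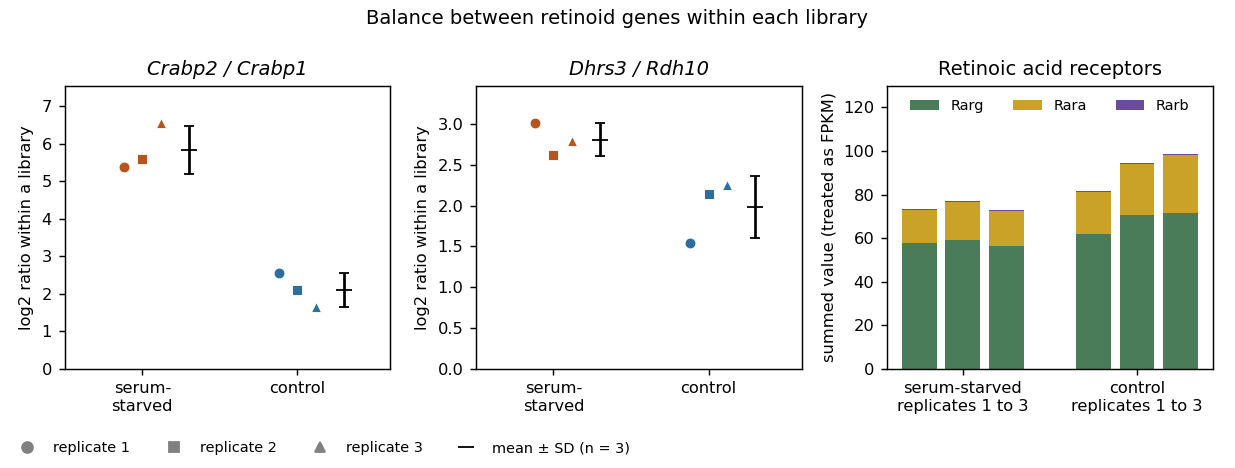
Left and middle, log2 ratio of Crabp2 to Crabp1 and of Dhrs3 to Rdh10 within each serum-starved (brown) and control (blue) library, with mean ± SD. Right, stacked values (treated as FPKM) of Rarg, Rara and Rarb per library; both ratios are higher in every serum-starved library, and Rarg holds most of the receptor sum in all 6 libraries.

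The order of levels among the 8 members differed between the groups. In serum-starved cells Rarg was highest at 57.8 ± 1.33, followed by Dhrs3 at 54.5 ± 1.55, Rara at 16.4 ± 1.08, Crabp2 at 13.1 ± 4.70, Aldh1a1 at 5.74 ± 1.26, Crabp1 at 0.250 ± 0.173, Rarb at 0.140 ± 0.0300 and Stra6. In controls Crabp2 was highest at 71.5 ± 25.6, followed by Rarg at 68.1 ± 5.45, Dhrs3 at 23.6 ± 6.23, Rara at 23.0 ± 3.73, Crabp1 at 16.1 ± 3.73, Aldh1a1 at 10.3 ± 1.84, Rarb at 0.393 ± 0.125 and Stra6. In serum-starved cells the values of Rara and Crabp2 overlapped, as did those of Crabp1 and Rarb. In controls the overlapping neighbours were Crabp2 and Rarg, Dhrs3 and Rara, and Rara and Crabp1. These levels are compared on the per-length scale.

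Among the partners of these receptors, the RXR gene Rxra had 16.2 ± 1.89 in serum-starved cells and 16.3 ± 0.771 in controls, with a 95% interval of the difference from -0.22 to 0.20 (limma adjusted p = 0.915). Rxrb had 11.3 ± 0.726 in serum-starved cells and 10.2 ± 0.841 in controls (limma adjusted p = 0.178). Ppard, a fatty acid receptor that FABP5 can supply, fell 1.59-fold to 17.3 ± 1.41, against 27.4 ± 3.49 in controls. Of the 10 symbols on the nuclear receptor list 9 had a row and 6 were tested, of which 3 fell and 3 did not pass, while 2 rose with libraries scaled to the same sum. On the deposited scale 31.7% of all tested genes rose and 29.4% fell.

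Among coregulators of nuclear receptors more genes rose than fell. Of 16 genes 15 were tested, of which 10 rose, 1 fell and 4 did not pass, with a median difference of 0.33, where 31.7% of all tested genes rose, 29.4% fell and their median was 0.03. Ncoa1, the coactivator SRC-1, rose 1.98-fold to 6.79 ± 0.845, against 3.42 ± 0.313 in controls. Nrip1, a corepressor that is itself induced by retinoic acid, rose 1.95-fold to 3.15 ± 0.150, against 1.62 ± 0.0252 in controls. Kat2b, an acetyltransferase, rose 1.72-fold to 37.3 ± 6.65, against 21.7 ± 2.05 in controls, and the acetyltransferase Ep300 rose 1.52-fold. No gene of the coregulator list fell with equal library sums, after quantile normalization, with no filter, without the trend, or when serum-starved replicate 1 or 3, or any single control library, was left out.

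Genes known to respond to retinoic acid did not move one way. Of 30 symbols 29 had a row and 18 were tested, of which 8 rose, 6 fell and 4 did not pass, with a median difference of 0.05 against 0.03 over all tested genes. Shares over all tested genes were 31.7% rising and 29.4% falling. Ret, counted among the genes that fell, was below 1 in every serum-starved library and reached the filter only through the controls. Bhlhe40, a repressor also known as Stra13, fell 4.29-fold to 20.4 ± 1.23, against 87.6 ± 3.79 in controls. Gprc5a, the retinoic acid induced receptor RAIG1, fell 3.11-fold to 33.8 ± 5.57, against 105.2 ± 4.61 in controls. Tnfaip2, also induced by tumour necrosis factor, fell 3.22-fold to 9.17 ± 1.08, against 29.5 ± 1.92 in controls, and Cd38, a surface enzyme induced by retinoic acid in human myeloid cells, fell 2.74-fold to 4.53 ± 0.639, against 12.4 ± 0.632 in controls.

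The genes of this list that rose were led by Dhrs3. The homeobox gene Meis2, a proximal limb factor maintained by retinoic acid, rose 2.02-fold to 50.2 ± 4.53, against 24.9 ± 2.12 in controls. The HOX genes Hoxa5, Hoxb5 and Hoxb4, which set position along the body axis, all rose. Hoxa5 had 2.86 ± 0.115 in serum-starved cells, against 1.27 ± 0.118 in controls.

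**Figure D4:**
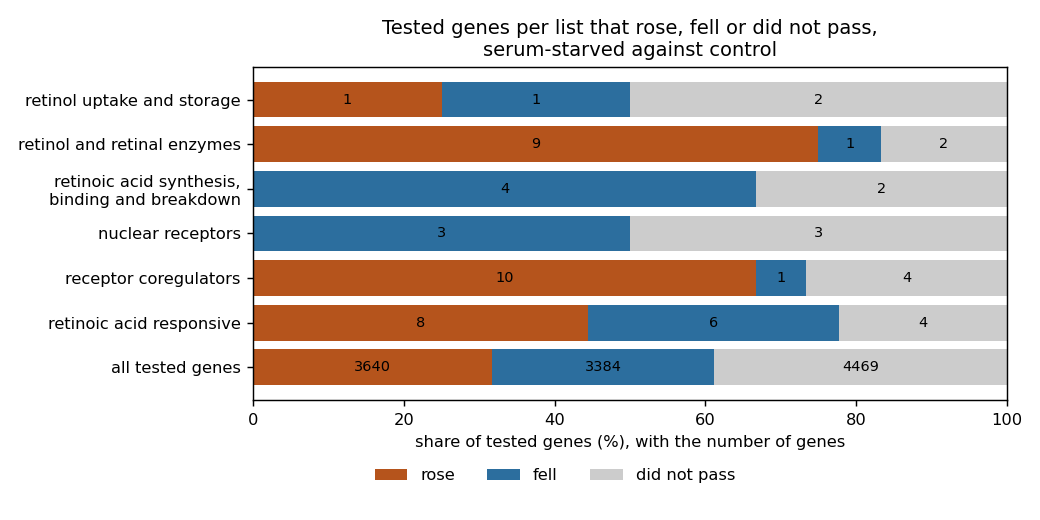
Share of tested genes in 6 retinoid lists and among all tested genes that rose (brown), fell (blue) or did not pass (grey) in serum-starved against control cells, with the number of genes printed in each bar. Retinol and retinal enzymes had 9 genes that rose of 12, retinoic acid synthesis, binding and breakdown had 4 that fell of 6, and all tested genes split into 3640 and 3384.

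Taking all lists without the members, 51 of 79 genes with a row were tested, of which 25 rose, 10 fell and 16 did not pass, with a median difference of 0.25 against 0.03 over all tested genes. Among all tested genes 31.7% rose and 29.4% fell. The lists were chosen with earlier results of these data known, and nothing particular to retinoid genes is read from these counts.

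The genes whose profile over the 6 libraries was nearest to that of the 3 most changed members were looked up by Euclidean distance between centred log2(value + 1) profiles, among 10429 tested genes with a settled symbol. For Crabp1 they were Spc24 at 0.55, Egr1 at 0.56 and Ndc80 at 0.58, against a median distance of 4.68. Crabp1, Spc24 and Ndc80 were at most 1.04 in every serum-starved library, and log2(value + 1) brings such low values close together. Egr1 was at 11.8 to 18.6 there. Spc24 and Ndc80 are kinetochore proteins and Egr1 is an immediate early transcription factor. For Crabp2 they were Mfap3l at 0.49, the laminin receptor subunit gene Itga6 at 0.52 and the semaphorin gene Sema7a at 0.55, against a median of 3.09. All 3 had their lowest control value in control replicate 3, as Crabp2 had, which the choice by nearness to its profile favours. For Dhrs3 they were Clu at 0.13, which encodes the secreted chaperone clusterin, Ypel4 at 0.18 and the polycomb gene Cbx7 at 0.21, against a median of 1.58.

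Many markers of cell type and cell state also differed between the groups, where 31.7% of all tested genes rose and 29.4% fell. All 8 proliferation markers fell, and their summed level was 64.7 to 73.2 in serum-starved cells and 336.0 to 437.4 in controls. Of 11 tested nucleus pulposus markers 7 fell, 3 rose and 1 did not pass, with sums of 389.2 to 420.1 in serum-starved cells and 703.1 to 746.6 in controls. Acan, the main proteoglycan of the disc core, was at 2.67 to 3.27 in serum-starved cells and 47.2 to 102.8 in controls. Car3, a carbonic anhydrase, rose to 26.1 ± 0.852, against 1.03 ± 0.219 in controls, and the vertebral patterning gene Pax1 rose to 51.2 ± 5.02, against 27.5 ± 3.43 in controls. Of other defining markers, Col2a1 was at most 0.06 in every library, Krt18 was listed at 0 in all 6, and no row was matched for Tbxt or Krt19, while the annulus and tendon fibroblast list summed to 3297 to 3374 in serum-starved cells and 2776 to 3161 in controls, mostly through Col1a1, and of its 7 tested genes 3 rose and 2 fell. Smooth muscle and pericyte markers summed to 674.9 to 769.8 in serum-starved cells and 395.8 to 513.5 in controls, and of 8 tested genes 3 rose and 2 fell. Chondrocyte markers summed to 416.6 to 458.2 in serum-starved cells and 115.5 to 149.9 in controls, mostly through Col11a1. Both tested genes, Col11a1 and Hapln1, rose, and the other 5 genes with a row stayed below 1 in all 6 libraries. Glial markers summed to 111.2 to 120.2 in serum-starved cells and 28.6 to 37.6 in controls, mostly through S100b, both tested genes rose, and Sox10 was listed at 0 in all 6. Endothelial markers summed to 0.81 to 0.95 in serum-starved cells and 0.84 to 1.38 in controls, and adipocyte markers to 0.81 to 1.37 in serum-starved cells and 0.47 to 1.08 in controls. Leukocyte markers summed to 12.2 to 15.9 in serum-starved cells and 24.3 to 30.5 in controls, mostly through Cd14, which fell while the other 2 tested genes rose. Of the notochordal list 2 genes were tested, of which Lgals3 rose and Krt8 fell. The sums of that list were 918.7 to 1005 in serum-starved cells and 829.5 to 865.8 in controls, almost wholly through Lgals3. The part of these markers in the retinoid results was not tested.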

How the data were processed

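Total RNA was depleted of ribosomal RNA and sequenced from random-primed fragments, per the labels' protocols. The authors deposited 1 table per library with 1 value per gene to 2 decimals. No file header names the unit. Values were treated as FPKM as deposited, since they are not whole and sum to different totals. The tools listed are HISAT2 and StringTie beside bcl2fastq 2.0, limma and DESeq2, per the submitters' processing notes, which also name mm10, a mouse build, although the gene IDs are those of rat: 15927 (93.2%) matched the GRCr8 table. The build behind the values is therefore unknown, and printed coordinates belong to the RefSeq promoter windows alone. Strand use and the handling of shared reads are not given in the sources used here. Without counts, no interval for depth is given.

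Genes reaching 1 in 3 or more libraries were tested on log2(value + 1) with limma 3.58.1 (R 4.3.3), intensity trend and no block, and the code was tested on simulated data. Alternatives were 2 pseudocounts, 2 filters, 3 scalings, no trend, library weights, a replicate block and each library left out. Members and lists were chosen with earlier results of these data known. Named genes were the members, up to 4 changed genes with the largest difference per retinoid list, the genes of the ratios, and the nearest profiles. Log2 ratios, but not the linear ratios, added a pseudocount of 0.01 to both values. The ratio of Aldh1a1 to Aldh1a2 could not be formed. Aldh1a3, Aldh1a7, Cyp26a1, Cyp26b1, Lrat, Rxra, Rxrb, Meis2, the HOX genes and the marker genes were named after their values were seen, as were the genes of the closing section. Permutation tests used scipy 1.17.1.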

Additional observations from a re-analysis of the deposited data

How the results depend on the processing

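Crabp1, Crabp2, Dhrs3 and Aldh1a1 kept their direction and their side of the threshold under every alternative in which they were tested. Crabp1 could not be tested without a control replicate, since only 2 libraries then reached a value of 1. The size for Crabp1 depended on the pseudocount and the scale, at -5.63 with a pseudocount of 0.1, -4.47 with 0.5 and -4.37 with equal library sums. Over libraries left out, the log2 difference was -3.87 to -3.67 for Crabp1, -2.68 to -2.15 for Crabp2, 0.99 to 1.37 for Dhrs3, -0.90 to -0.62 for Aldh1a1, -0.58 to -0.35 for Rara and -0.30 to -0.19 for Rarg, while 3 to 5 members and 0 to 1 coregulator genes fell. With libraries scaled to the same sum, 5579 genes rose, Rara was at -0.28 and Rarg at -0.041, 3 members fell, 2 uptake genes and 2 nuclear receptor genes rose and 0 coregulator genes fell. After quantile normalization Rarg was at -0.057 and 0 coregulator genes fell. With no filter Rarb was at -0.29 and passed, 2 uptake genes, 1 gene of synthesis, binding and breakdown and 1 nuclear receptor gene rose, and 2 retinol and retinal enzymes, 5 nuclear receptor genes and 0 coregulator genes fell. With the filter at 5, where fewer genes were tested, 4 retinoic acid responsive genes rose. Without trend 0 coregulator genes fell. With the replicate number as a block 0 coregulator genes fell, 6801 genes were called against 7024 without it, and no call of a member changed. The numbers were not taken to pair the cultures, since the labels do not say that they do. Deviations of same-numbered libraries correlated at 0.037, -0.16 and 0.10 for replicates 1, 2 and 3. Control replicate 2 and serum-starved replicate 1 reached 0.16, so these correlations cannot settle whether cultures were paired. The cause of these shifts was not tested, and the unknown depth limits Rarb, Stra6 and the serum-starved values of Crabp1.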

Other observations

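Receptors that pair with RXR but bind other ligands moved in both directions. Of 13 such symbols, listed after the retinoid values had been seen, 12 had a row and 8 were tested, of which 3 rose, 2 fell and 3 did not pass. Among all tested genes 31.7% rose and 29.4% fell. Thrb, a thyroid hormone receptor, had values of 4.83 ± 0.348 in serum-starved cells and 0.870 ± 0.191 in controls (n = 3 each), 5.55-fold higher. It was below 1 in every control and reached the filter only through the serum-starved libraries. Nr1h3, the oxysterol receptor LXR alpha, rose 2.82-fold to 8.22 ± 0.926, against 2.91 ± 0.193 in controls, and Thra rose 1.38-fold. Nr4a1, an immediate early orphan receptor, fell 7.19-fold to 6.63 ± 0.650, against 47.7 ± 14.1 in controls. Vdr, the vitamin D receptor, was below the filter at 0.32, 0.17 and 0.20 in serum-starved cells and 0.03, 0.06 and 0.03 in controls.

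The fatty acid binding protein family, which shares its fold with the CRABP proteins and was also listed after those values had been seen, had 5 rows of 10 symbols, and the 2 tested genes, Fabp5 and Fabp3, fell. The share of all tested genes that fell was 29.4%. Fabp3 fell 2.63-fold to 6.95 ± 1.17, against 18.3 ± 1.45 in controls. Fabp4, a marker of fat cells, was listed at 0.16, 0 and 0.29 in serum-starved cells and at 0.43, 0.56 and 0.15 in controls.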
